A study of Mus musculus with 6 samples.

Results

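Of 4425936 autosomal CpG sites with 10 to 45 reads in a DNMT3A2 line and 10 to 40 reads in a DNMT3B1 line, 65113 (1.47%, exact 95% binomial interval 1.46% to 1.48%) were methylated in at least 50% of reads with DNMT3A2 and in under 50% with DNMT3B1. They are called DNMT3A2 sites here, and the remaining eligible sites served as the comparison. Whole-genome bisulfite sequencing had been run on 3 lines of mouse embryonic stem cells, all of which lacked the endogenous enzymes DNMT1, DNMT3A and DNMT3B. The first line expressed DNMT3A2, the second DNMT3B1, and the third DNMT3B1 with SETD2 knocked out in addition. All were grown on feeder cells or gelatine. For every line the labels name 2 runs of sequencing but only 1 set of values was distinct, and nothing marks a second culture or clone, so lines were compared without p-values. Neither the promoter behind the reintroduced enzyme nor its amount is given in the labels, so a level describes a line and not the activity of an enzyme.

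DNA methyltransferases of the DNMT3 family place methyl groups on cytosines of CpG dinucleotides that carried none before, and DNMT1 copies such marks onto newly made DNA strands. Without DNMT1 a mark is diluted at each cell division unless it is placed anew. Reads from feeder cells and cytosines left unconverted by bisulfite would also read as methylated, and their share was not measured here. DNMT3A2 is a short form of DNMT3A that is abundant in embryonic stem cells, and DNMT3B1 is the long catalytic form of DNMT3B. SETD2 places a trimethyl mark on histone H3 along transcribed genes, and the PWWP domain of DNMT3B can bind that mark. DNA wrapped around nucleosomes is a poorer substrate for these enzymes in vitro than the linker DNA between them.

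Read totals on CpGs were alike, at 188661576 in the DNMT3B1 line, 200364080 in the DNMT3A2 line and 200947834 in the SETD2 knockout. The median eligible site had 15 reads in each of the first 2 lines and 18 in the knockout, which listed 73.2% of the eligible sites because its values start at 10 reads. Taken over all eligible sites, 7.32% of DNMT3A2 reads, 2.77% of DNMT3B1 reads and 5.69% of knockout reads were methylated.

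The DNMT3A2 and DNMT3B1 values chose the sites and are given as a description. At the DNMT3A2 sites 58.1% of 939506 reads were methylated with DNMT3A2 and 4.46% of 989864 with DNMT3B1. Full methylation was rare, since 41389 of the sites (63.6%) lay at 0.5 to under 0.6 with DNMT3A2, 525 lay at 0.9 or above with at least 1 unmethylated read, and 0.183% had every read methylated. DNMT3B1 left no methylated read at 71.9% of the DNMT3A2 sites, 1 read at 10.8%, 2 or 3 at 11.6% and 4 or more at 5.75%. Among the other eligible sites these shares were 81.6%, 7.61%, 7.26% and 3.49%. DNMT3B1 methylation was thus more frequent at the DNMT3A2 sites, in a comparison not matched on CpG density or coverage. The label of sites mostly methylated with DNMT3A2 thus mostly describes methylation in a little over 50% of the reads. Only 739 sites reached 50% in both lines, and 15439 (0.349%) reached it with DNMT3B1 but not with DNMT3A2. These last are called DNMT3B1 sites and are the set most like the one described.

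The share of sites chosen fell with depth. DNMT3A2 sites made up 2.08% of eligible sites with 10 to 12 DNMT3A2 reads, 1.44% at 13 to 15, 1.22% at 16 to 20, 0.858% at 21 to 30 and 473 of 94600 at 31 to 45. The knockout level of the chosen sites did not fall with that depth, being 9.05% (exact 95% interval 8.96% to 9.15%) at 10 to 12 DNMT3A2 reads, 9.58% at 16 to 20 and 10.0% (9.41% to 10.6%) at 31 to 45. The excess over matched sites was 1.37 times in the first of these classes and 1.60 times in the last.

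The SETD2 knockout took no part in choosing the sites, and in it the DNMT3A2 sites were modestly more methylated than comparable CpGs. Of their 837821 knockout reads 9.35% were methylated (9.29% to 9.42%), against 6.59% at the other eligible sites matched on CpG density and on coverage in both selecting lines. The ratio was 1.42, and it lay above 1 on 19 of 19 autosomes, with a lowest value of 1.30, a highest of 1.51 and an SD of 0.062 over autosomes. The knockout listed 43999 of the DNMT3A2 sites (67.6%), a smaller share than the 70.2% of matched sites. No methylated knockout read was seen at 48.5% of those listed, against 58.7% of matched sites and 62.8% of all eligible sites listed. A further 20.6% lay at 10% to under 25%, against 16.6% of matched sites, and 11.4% at 25% to under 50%, against 7.45%. In the knockout 912 of the sites (2.07%, 1.94% to 2.21%) were methylated in at least 50% of reads, against 1.05% of matched sites and a background of 0.869% over all eligible sites listed. At knockout coverage of 20 reads or more this share was 0.855%, against 0.388% of matched sites, so its size depended on depth while the members stayed higher.

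DNMT3B1 sites, chosen by the same threshold from the line with the same isoform as the knockout, had a higher knockout level. That threshold was the stricter choice in the DNMT3B1 line, where it gave 0.349% of eligible sites against 1.47% for DNMT3A2 sites. It was 13.03% of 191987 reads (12.9% to 13.2%), against 6.62% at their matched sites, a ratio of 1.97 with a range of 1.79 to 2.13 over autosomes. Their ratio exceeded that of the DNMT3A2 sites on 19 of 19 autosomes. The knockout listed 65.9% of the DNMT3B1 sites, against 69.2% of their matched sites. The 739 sites at or above 50% in both lines had a knockout level of 16.4% (15.6% to 17.2%).

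Knockout methylation rose with the DNMT3A2 level over most of the scale and showed no step at the threshold. Grouped by DNMT3A2 level at any DNMT3B1 level, sites without a methylated DNMT3A2 read had a knockout level of 4.43%, those at 0.1 to under 0.2 one of 7.37%, and those at 0.3 to under 0.4 one of 8.42%. Just below the threshold, at 0.45 to under 0.5, the knockout level was 9.15% (23910 sites, 16783 of them listed), and just above it, at 0.5 to under 0.55, 9.06% (32550 sites, 22207 listed). The DNMT3B1 levels of these groups were 4.70% and 4.63%. At 0.8 to under 0.9 with DNMT3A2 the knockout reached 11.6% (11.1% to 12.01%), and at 0.9 or above 9.98% (9.27% to 10.7%). In the strata of the DNMT3A2 sites these last values were 11.7% and 11.6%. Sites that just passed the threshold with DNMT3B1 already had 12.8% in the knockout (12.6% to 13.04%), more than the most methylated DNMT3A2 groups.

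**Figure D1:**
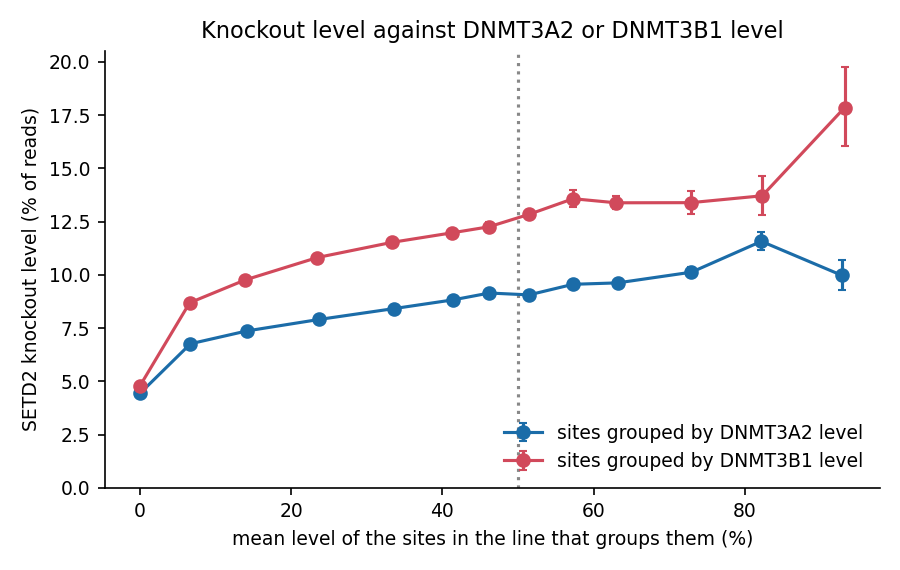
Level in the SETD2 knockout (vertical axis, % of reads, with exact 95% binomial intervals) of eligible sites grouped by their level in the DNMT3A2 line (blue) or in the DNMT3B1 line (red), plotted at the mean level of each group (horizontal axis, %); the dotted line marks the threshold of 50%. Both curves rise without a step there, from 4.43% at sites without a methylated DNMT3A2 read to 11.6% at 0.8 to under 0.9 with DNMT3A2, and the red curve lies above the blue one.

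Sites chosen by DNMT3A2 level alone were also somewhat more methylated with DNMT3B1 than matched sites. Such a choice adds to the DNMT3A2 sites the 739 at or above 50% in both lines. Choosing by DNMT3A2 alone gave 65852 sites with a DNMT3B1 level of 5.13% (5.09% to 5.18%), against 3.13% at matched sites, a ratio of 1.64. Among them 739 (1.12%) reached 50% with DNMT3B1, against 0.436% of matched sites and a background of 0.366% over all eligible sites. Choosing by DNMT3B1 alone gave 16178 sites with a DNMT3A2 level of 12.96% against 8.31%, a ratio of 1.56. Within the DNMT3A2 sites, knockout methylation went up with the number of methylated DNMT3B1 reads, from 8.11% at sites with none to 14.4% at sites with 4 or more. Against other sites with the same number of such reads the ratio was 1.41 at 0 reads and 1.26 at 4 or more.

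DNMT3A2 sites were rare in CpG-dense DNA and most frequent at intermediate density, counted as CpGs within 500 bp on each side. They were 1.04% of eligible sites at 1 to 4 CpGs, 1.60% at 5 to 9, 1.91% at 10 to 19 and 1.23% at 20 to 39. In the dense DNA that holds CpG islands they nearly vanished, with 99 sites (0.0553%) at 40 to 59 CpGs and 24 of 342566 (0.00701%) at 60 or more. The DNMT3B1 sites shared the fall at high density and rose less from the sparsest class, with 0.402% (0.375% to 0.430%) at 1 to 4 CpGs, 0.445% (0.432% to 0.458%) at 5 to 9 and 0.414% at 10 to 19. The median was 12 CpGs around sites of either set and 14 around all eligible sites, but with a minimum of 5 reads it was 12 around both the DNMT3A2 sites and all eligible sites.

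**Figure D2:**
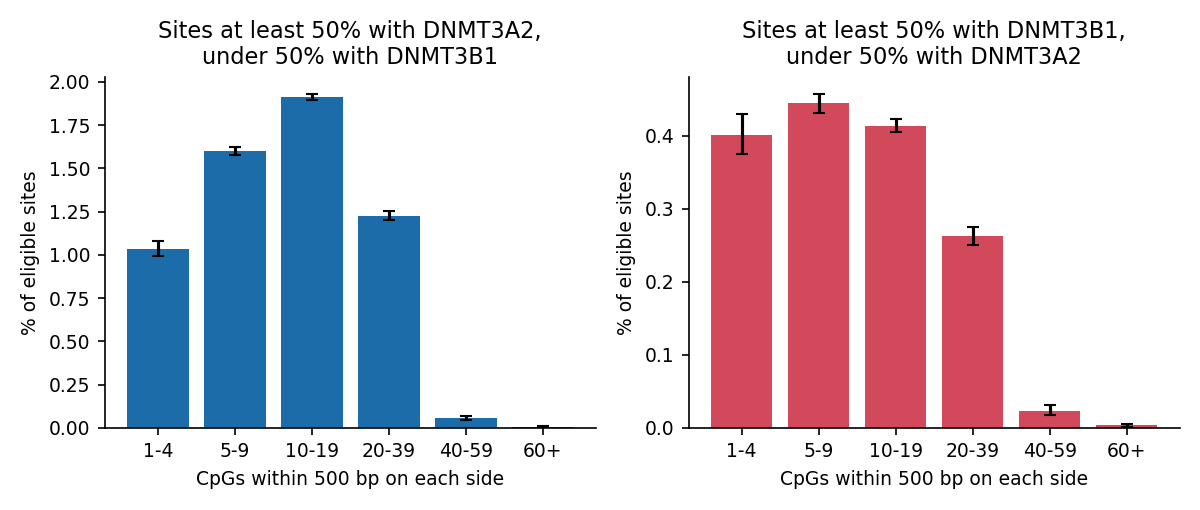
Share of eligible sites (vertical axes, %, with exact 95% binomial intervals) that were DNMT3A2 sites (left) or DNMT3B1 sites (right), by the number of CpGs within 500 bp on each side (horizontal axis), on different vertical scales. DNMT3A2 sites peaked at 1.91% in the class of 10 to 19 CpGs and fell to 0.00701% at 60 or more.

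The knockout excess at DNMT3A2 sites depended on density mainly through the other sites. The sites themselves had a knockout level of 9.36% at 1 to 4 CpGs, 9.43% at 5 to 9, 9.496% at 10 to 19 and 8.74% at 20 to 39, while their matched sites had 6.62%, 7.04%, 6.83% and 4.98%. The ratio was thus 1.34 to 1.41 in the 3 sparser classes and 1.76 at 20 to 39 CpGs. At 40 to 59 CpGs it was 4.27, from 80 of 1587 knockout reads at 78 listed sites (5.04%, 4.02% to 6.23%) against 1.18%.

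The 24 sites in the densest DNA differed from the other DNMT3A2 sites in the knockout. None of the 453 knockout reads at the 21 sites listed was methylated. The exact 95% interval reached 0.811% and so included the 0.462% at matched sites. Of these sites 6 lay in 1 stretch on chromosome 10 from 12810345 to 12810934 (positions are of build mm9 throughout), with 101 of 187 reads methylated with DNMT3A2, 68 of 172 with DNMT3B1 and 0 of 99 in the knockout. The other 21 eligible sites within 500 bp of them had 39.9% with DNMT3A2, 30.8% with DNMT3B1 and 0.380% (1 of 263 reads) in the knockout, so the stretch as a pool was methylated in both lines and nearly unmethylated in the knockout, though 14 of those 21 had a methylated DNMT3B1 read and the rest none. The 18 dense sites elsewhere had 129 of 243 reads methylated with DNMT3A2, as the rule requires, 6 of 221 with DNMT3B1, all at 2 of the sites, and 0 of 354 in the knockout. Eligible neighbours within 500 bp of those 18 had 1.48%, 0.253% and 1.48% in the same order.

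The distance to the nearest other CpG set DNMT3A2 sites and DNMT3B1 sites apart. A nearest CpG at 2 bp means the tandem sequence CGCG. That distance was found for 1788 DNMT3A2 sites (2.75%), 1.17 times the share of matched sites, but for only 176 DNMT3B1 sites (1.14%), 0.509 times that of theirs (0.437 to 0.589 from the exact binomial interval). At 4 bp, with 2 bases between the CpGs, lay 2918 DNMT3A2 sites (4.48% against 2.80% of matched sites, a ratio of 1.60, 1.54 to 1.66) and 466 DNMT3B1 sites (a ratio of 1.12, 1.02 to 1.22). At 5 bp the ratios were 1.17 and 1.13, at 7 bp 1.23 and 1.22, and at 12 bp 1.03 and 1.095. At 3 bp the DNMT3A2 sites lay at 0.949 and the DNMT3B1 sites at 1.096 times their matched sites. Single distances were separated only after the wider classes had been seen. Counting density within 1000 bp moved the DNMT3A2 ratio at 2 bp to 1.08.

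**Figure D3:**
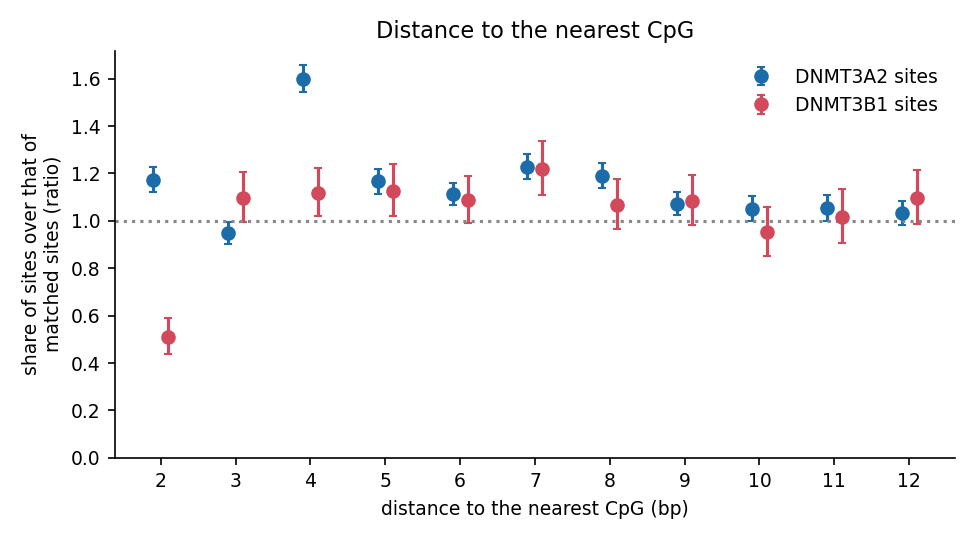
Share of DNMT3A2 sites (blue) and DNMT3B1 sites (red) whose nearest CpG lies at the given distance (horizontal axis, bp), divided by the share of sites matched on density and coverage (vertical axis, ratio); bars are exact 95% binomial intervals of the share, and the dotted line marks equality. DNMT3A2 sites stand out at 4 bp (1.60) and DNMT3B1 sites at 2 bp (0.509).

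The knockout was measured at these same spacings. At eligible sites with fewer than 40 CpGs around them and a nearest CpG at 2 bp, 8.37% of DNMT3A2 reads, 1.91% of DNMT3B1 reads and 4.17% of knockout reads were methylated. At a nearest CpG 10 to 19 bp away it was 8.61%, 3.17% and 6.49%. DNMT3B1, with or without SETD2, was thus lower at tandem CpGs, while the DNMT3A2 level differed little. DNMT3A2 sites with a neighbour at 2 bp had a knockout level of 7.68% (7.34% to 8.04%) against 4.36% at matched sites, a ratio of 1.76, and those with a nearest CpG at 4 bp had 10.4% against 7.02%, a ratio of 1.48.

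CpGs around the DNMT3A2 sites were more methylated than those around matched sites in all 3 lines, over a long range. At 2 to 9 bp the DNMT3A2 level was 29.1%, or 3.27 times that around matched sites, but sites this close share sequencing reads with the chosen site. Per the labels' protocols the fragments kept from the gel were shorter than 500 bp. From 500 bp to under 1 kb the DNMT3A2 level was 10.7% against 8.17% (1.31 times), the DNMT3B1 level 3.70% against 2.98% (1.24 times) and the knockout level 7.52% against 6.14% (1.22 times). At 1 to 2 kb the ratios were 1.24, 1.18 and 1.18, at 5 to 10 kb 1.13, 1.102 and 1.101, and at 50 to 100 kb 1.07, 1.05 and 1.05.

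Around DNMT3A2 sites the knockout ratio fell little at first, from 1.42 at the site to 1.38 at 2 to 9 bp. It was 1.32 at 10 to 49 bp and 1.20 at 50 to 99 bp. It then rose to 1.26 at 100 to under 300 bp and was 1.25 at 300 to under 500 bp. Around DNMT3B1 sites the ratio dropped from 1.97 at the site to 1.32 at 2 to 9 bp. It was 1.26 at 10 to 49 bp and 1.11 at 50 to 99 bp. There too it rose again, to 1.22 at 100 to under 300 bp, and was 1.18 at 300 to under 500 bp. Between the site and 2 to 9 bp the knockout excess thus fell more steeply for DNMT3B1 sites than for DNMT3A2 sites. When the other sites were matched also on the knockout level 500 bp to 5 kb away, the ratios at the sites were 1.37 for the DNMT3A2 and 1.92 for the DNMT3B1 sites.

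**Figure D4:**
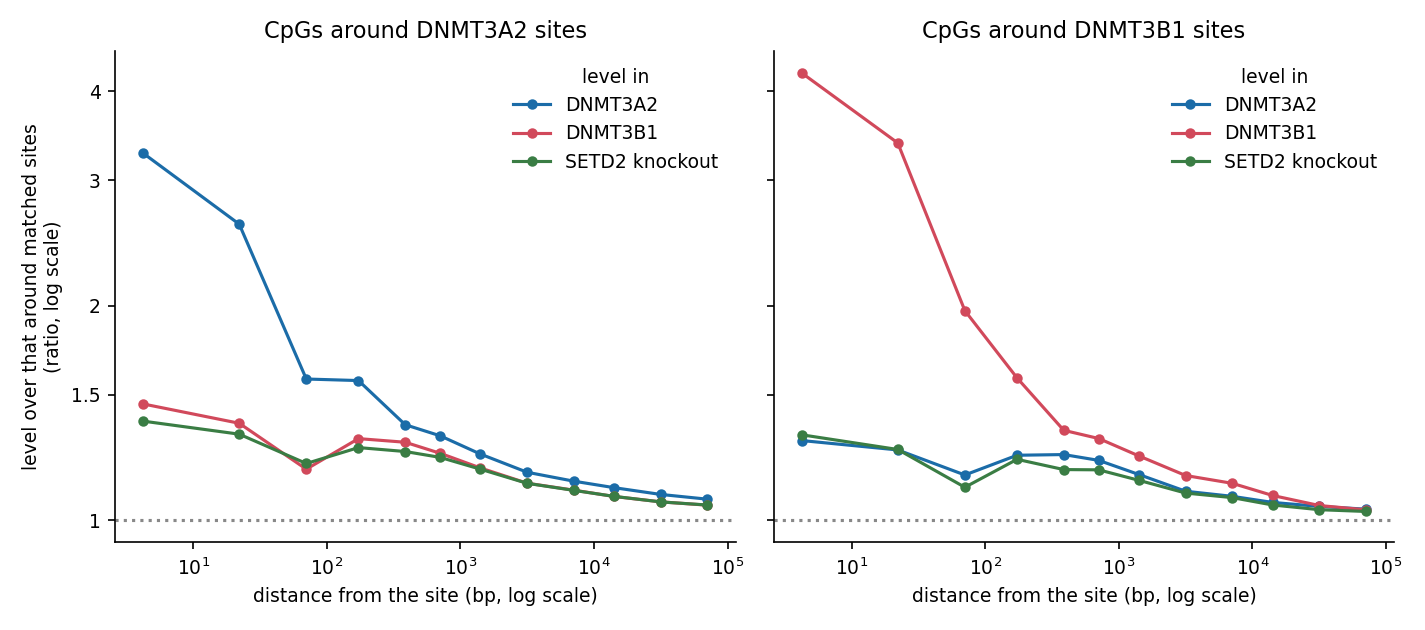
Level of CpGs around DNMT3A2 sites (left) and DNMT3B1 sites (right) divided by the level around matched sites (vertical axis, ratio, log scale), by distance from the site (horizontal axis, bp, log scale, each class at its geometric centre), in the DNMT3A2 line (blue), DNMT3B1 line (red) and SETD2 knockout (green). Near the site the selecting line is raised most (3.27 times at 2 to 9 bp for DNMT3A2 sites), and at 50 to 100 kb the 3 lines are within 1.05 to 1.07 around DNMT3A2 sites.

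In bins of 10 bp the levels around DNMT3A2 sites rose and fell repeatedly, at similar distances in the 3 lines. This finer division, and the ranges searched for each highest and lowest bin, were chosen after the curves had been seen. With DNMT3A2 the ratio to matched sites fell to 1.29 at 100 to 109 bp, rose to 1.91 at 180 to 189 bp, fell to 1.24 at 270 to 279 bp and rose again to 1.52 at 380 to 389 bp and to 1.45 at 550 to 559 bp. The DNMT3B1 line had maxima of 1.51 at 180 to 189 bp, 1.46 at 360 to 369 bp and 1.35 at 530 to 539 bp, with minima of 1.15 at 70 to 79 bp and 1.09 at 270 to 279 bp.

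The knockout, whose reads had no part in choosing the sites, rose and fell at similar distances. Its level was 6.81% (6.70% to 6.93%) at 80 to 89 bp, 8.92% (8.81% to 9.04%) at 170 to 179 bp, 7.04% (6.92% to 7.16%) at 280 to 289 bp, 8.57% (8.44% to 8.70%) at 350 to 359 bp, 7.08% (6.96% to 7.20%) at 440 to 449 bp and 8.25% (8.13% to 8.38%) at 540 to 549 bp. These bins were picked as the highest and lowest of their ranges, so the distance between their values is in part a product of that choice. A further maximum of 7.81% lay at 730 to 739 bp. Levels around matched sites rose and fell in the same bins but varied less, with 6.02%, 6.498%, 6.11%, 6.40%, 6.15% and 6.27% in the bins of the first 6 values. In the knockout the level at 160 to under 200 bp was 1.24 times that at 80 to under 120 bp, and with DNMT3B1 1.38 times. Both compare levels around the DNMT3A2 sites without dividing by matched sites, whose levels rose there too. With DNMT3B1 the matched level was 2.88% at 80 to 89 bp and 3.22% at 180 to 189 bp.

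Around DNMT3B1 sites the maxima fell at similar distances. With DNMT3A2 they lay at 180 to 189 bp (1.37 times matched), 380 to 389 bp (1.32) and 550 to 559 bp (1.36), and in the knockout at 170 to 179 bp (1.36), 360 to 369 bp (1.27) and 530 to 539 bp (1.27). Nucleosome positions were not measured, and their part in this spacing was not tested.

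**Figure D5:**
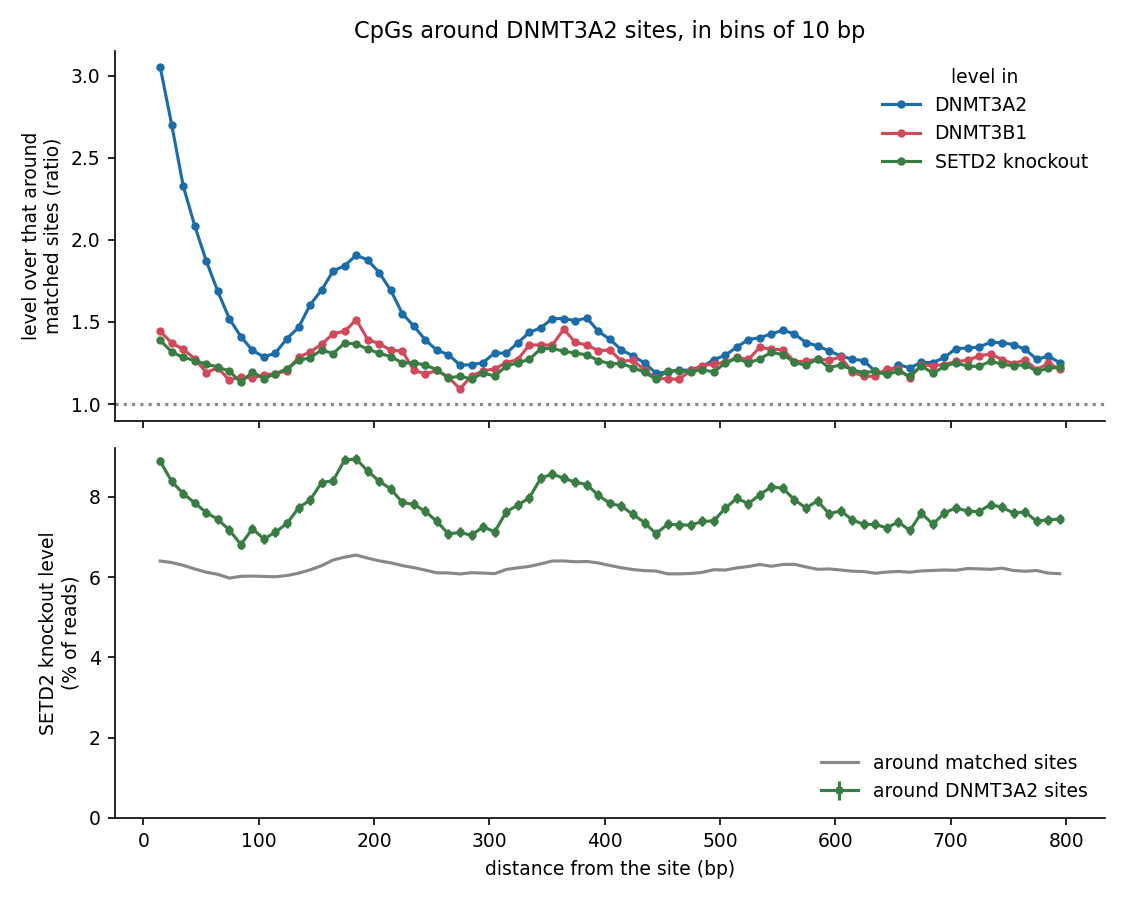
Levels of CpGs around DNMT3A2 sites in bins of 10 bp, by distance from the site (horizontal axis, bp). Top: level divided by that around matched sites (ratio) in the DNMT3A2 (blue), DNMT3B1 (red) and SETD2 knockout (green) lines; bottom: the knockout level itself (% of reads, with exact 95% binomial intervals) beside that around matched sites (grey). All 3 lines have maxima near 180, 360 and 550 bp, and the knockout reaches 8.92%, 8.57% and 8.25% in its highest bins there.

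DNMT3A2 sites had another DNMT3A2 site nearby more often than matched sites did. Another such site was within 1 kb of 28.5% of them, against 11.8% of matched sites, a ratio of 2.42. The rarer DNMT3B1 sites had another of their own kind within 1 kb in 10.1% of cases against 2.77%, a ratio of 3.66. Much of this came from distances at which CpGs share reads. Among eligible neighbours 2 to 9 bp away 24.3% were also DNMT3A2 sites, against 1.69% around matched sites (14.4 times, and 27.3 times for DNMT3B1 sites among theirs), and at 50 to 99 bp 4.11% against 1.28%. From 500 bp to under 1 kb the share was still 2.35% against 1.52%, at 1 to 2 kb 2.09% against 1.45% and at 50 to 100 kb 1.60% against 1.38%. Counting only distances of 300 bp to 1 kb, which still include some within a fragment, 11.3% had another such site, against 7.65% of matched sites. From 500 bp to under 1 kb it was 7.77% against 5.54%. With at least 15 reads in both lines the share within 1 kb was 17.7% against 4.62%.

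Joined wherever the next site was at most 500 bp away, 49960 DNMT3A2 sites (76.7%) stood alone, 11256 formed pairs, 2784 lay in groups of 3 and 1113 in 257 larger groups. Median spacing between consecutive sites was 11099 bp. The knockout level was 9.25% (9.18% to 9.32%) at single sites, 9.39% in pairs, 10.4% (10.1% to 10.7%) in groups of 3 and 10.6% (10.1% to 11.1%) in larger groups, or 1.39, 1.45, 1.66 and 1.82 times matched sites.

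The 5 groups with most sites held 7 or 8 each. On chromosome 8 from 49321309 to 49321813, 8 of 25 CpGs were DNMT3A2 sites, with 58 of 102 reads methylated with DNMT3A2, 0 of 175 with DNMT3B1 and 0 of 145 in the knockout, which listed 5 of the 8. The 14 other eligible CpGs between them had 19.6%, 2.63% and 15.3%, so in the knockout other CpGs of the same stretch were methylated. On chromosome 8 from 23626356 to 23627758, 8 sites had 62.9%, 4.80% and 5.98% in the order DNMT3A2, DNMT3B1, knockout. On chromosome 11, 7 sites from 64865804 to 64866032 had 65.3%, 4 of 100 reads and 6 of 75 reads. There too, 7 sites from 99994802 to 99995785 had 60.3%, 5.83% and 4.96%. On chromosome 9, 7 sites from 118227092 to 118228087 had 56.5%, 2 of 133 reads and 5.65%. The knockout thus lay below its mean over all DNMT3A2 sites (9.35%) in each of these 5 groups, with intervals that included that mean in 4 of them (upper bounds between 10.5% and 16.6%). In each group it also lay below the other eligible CpGs between the sites. Those had 15.3%, 12.6%, 21.4% (3 of 14 reads), 11.4% and 7.58% in the knockout, in the order of the groups. The intervals of the 2 sets overlapped in all groups but the first.

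Single sites with the firmest contrast were not more methylated in the knockout than the DNMT3A2 sites as a whole. Among the sites at 0.9 or above with DNMT3A2 and no methylated DNMT3B1 read, 270 were listed in the knockout, with a level of 8.61% (7.82% to 9.44%). That interval included the 8.11% of all DNMT3A2 sites without a methylated DNMT3B1 read, which share this condition. The most deeply read of these, on chromosome 12 at 102218513, had 26 of 27 reads methylated with DNMT3A2, 0 of 16 with DNMT3B1 and 2 of 16 in the knockout. At 5 eligible CpGs within 500 bp of it 10.9% of DNMT3A2 reads (7 of 64) and 9.90% of knockout reads (10 of 101) were methylated. On chromosome 14 at 104843997 the counts were 22 of 24, 0 of 18 and 0 of 17, and on chromosome 6 at 145623723 they were 22 of 23, 0 of 11 and 0 of 24. Around the latter the DNMT3A2 level was 1.61% (2 of 124 reads). On chromosome 10 at 79339462 the counts were 20 of 22, 0 of 12 and 2 of 16. The site on chromosome 16 at 92437771 had 20 of 22, 0 of 22 and 4 of 14 (28.6%, exact 95% interval 8.39% to 58.1%), and the CpGs around it were also methylated with DNMT3A2 (34.8%, 16 of 46 reads) but not with DNMT3B1 (0 of 62) or in the knockout (0 of 48).

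DNMT3A2 sites occurred on every autosome, from 0.941% of eligible sites on chromosome 11 to 1.87% on chromosome 13. Chromosomes 11, 6 and 8 had the lowest shares and also the highest median DNMT3A2 coverage at eligible sites, 17, 16 and 16 reads against 14 on the other autosomes. With density and coverage classes weighted alike, the shares ran from 1.12% on chromosome 11 to 1.73% on chromosome 18. In 7948 windows of 100 kb with at least 200 eligible sites the median share was 1.37%, with 0.258% at the fifth and 3.66% at the 95th percentile, and 201 windows held none.

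The 5 windows richest in DNMT3A2 sites reached 7.42% to 8.02%. On chromosome 17 from 49100001 to 49200000, 17 of 212 eligible sites belonged (8.02%, 4.74% to 12.5%), with 0 of 233 reads methylated with DNMT3B1 and 15.5% (10.7% to 21.3%) in the knockout. The other eligible sites of that window had 7.59% with DNMT3A2, close to the 7.32% over all eligible sites. With DNMT3B1 they had 3.85% and in the knockout 7.61%, above the 2.77% and 5.69% over all eligible sites. The window on chromosome 1 from 189100001 to 189200000 held 17 of 221 (7.69%), that on chromosome 13 from 114900001 to 115000000 held 20 of 261 (7.66%), that on chromosome 19 from 58000001 to 58100000 held 15 of 200 and that on chromosome 15 from 86100001 to 86200000 held 25 of 337 (7.42%). In these 4 the DNMT3A2 sites had 3.91% to 10% in the knockout. The remaining sites there had 10.3% to 11.9% with DNMT3A2, 4.33% to 5.84% with DNMT3B1 and 7.20% to 9.47% in the knockout, all above the levels over all eligible sites.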

How the data were processed

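Bisulfite reads retain a C where a cytosine was methylated. The deposited values give the count of all reads and of methylated reads at each CpG, with both strands on 1 line and no run named, and for the knockout also their fraction, computed by the authors as methylated over all reads. Both knockout files held the same bytes, so 1 of them was read; whether it holds 1 run or both is unknown. Genome build mm9 comes from the submitters' processing notes; no source used here names the aligner, the caller or how duplicates were handled. PCR duplicates would count as separate reads, so binomial intervals (exact, 95%) cover counting error only. Bases flanking the CpGs were not analysed here.

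Sites needed 10 to 45 DNMT3A2, 10 to 40 DNMT3B1 and, for knockout values, 10 to 80 reads. Neighbouring CpGs needed at least 5 reads in the line measured (10 in the knockout). Other eligible sites were standardised to the members by stratum of CpG density (6 classes), DNMT3A2 coverage (4) and DNMT3B1 coverage (3). The calculation was checked on simulated independent reads, with a level set by density class and a known excess at the members. That check does not cover reads shared between sites or differences between regions. Named sites were the 5 most deeply read at 0.9 or above with no methylated DNMT3B1 read, the 5 largest groups, and the 5 windows of 100 kb with the highest share. Members, classes and lists were chosen with earlier results of these data known. Scripts ran under Python 3.11.15 with scipy 1.17.1 for intervals, pandas 2.3.3 and numpy 2.4.6 for tables, and matplotlib 3.10.9 for figures.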

Additional observations from a re-analysis of the deposited data

How the results depend on the processing

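No ratio among the 97 alternative values crossed 1. The counts, shares and medians among them have no such direction and were checked only for a shift. The knockout ratio ran from 1.35 to 1.62 at DNMT3A2 sites and from 1.82 to 2.16 at DNMT3B1 sites. Values below start with the number of DNMT3A2 sites, then the knockout ratio at DNMT3A2 and at DNMT3B1 sites. Next come the share with at least 50% in the knockout and the share with another site within 1 kb. After these follow the DNMT3A2 and knockout ratios 1 to 2 kb away. Last are the knockout and DNMT3B1 levels at 160 to under 200 bp over those at 80 to under 120 bp. Ratios and shares that stayed within counting error of the main value were left out. A minimum of 5 reads gave 242216, 1.35, 1.82, 46.0%, 1.22, 1.16, 1.22 and 1.34. A minimum of 15 gave 12137, 1.49, 2.05, 1.86%, 17.7%, 1.28, 1.20, 1.24 and 1.43, with a median of 13 CpGs per kb. A minimum of 20 gave 2114, 1.59, 2.16, 1.21%, 11.97%, 1.33, 1.24, 1.33 and 1.31, with 13 CpGs per kb and ratios of 1.24 (0.959 to 1.57) and 1.48 for a nearest CpG at 2 and at 4 to 5 bp. A threshold of 0.75 in the selecting line gave 4285, 1.62, 2.10, 3.20%, 10.0%, 1.27, 1.20, 1.31 and 1.61, with 1.17 (0.963 to 1.398) for 2 bp and 1.49 for 4 to 5 bp, so both intervals at 2 bp included 1. Odd-numbered autosomes gave 33497, 1.43, 27.9%, 1.24, 1.18, 1.26 and 1.41 with 13 CpGs per kb, and even-numbered ones 31616, 1.41, 29.2%, 1.23, 1.17, 1.23 and 1.34.

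A DNMT3B1 level under 0.1 gave 53718 DNMT3A2 sites, with a knockout ratio of 1.41. The knockout ratio at DNMT3A2 sites was 1.35 matched on methylated DNMT3B1 reads, and 1.46 with density counted within 100 bp. Density within 100 bp also gave 2.02 at DNMT3B1 sites, a median of 15 CpGs per kb and 1.44 for 4 to 5 bp, and density within 1000 bp gave 1.08 for 2 bp and 1.34 for 4 to 5 bp. Means over sites gave 1.41 and 1.94 for the 2 sets, and knockout coverage from 20 reads gave 2.04 at DNMT3B1 sites and a share of 0.855% at DNMT3A2 sites. Matching on the knockout level nearby (1.37 and 1.92) and the bins of 10 bp with their alternatives were chosen after seeing the data. So were matching on knockout coverage and leaving sites at or above 0.5 in either line out of the comparison, which moved neither ratio beyond counting error. The median density of all eligible sites, 14 CpGs per kb against 12 at DNMT3A2 sites, was 12 with a minimum of 5 reads and 12.5 with density within 1000 bp, while the sites stayed at 12. Only distances of 300 bp to 1 kb gave 11.3%. No paired analysis was possible because the runs carry no replicate numbers and each line has 1 set of values.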
